A study of Homo sapiens with 4 samples.

Results

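The genes described here were close to silent in uninduced human fibroblasts and were read out at 5 FPKM or more once the pioneer factor FOXA2 was induced. FPKM counts sequenced fragments per length of transcript and per size of library, so levels can be compared between genes. A row of the deposited table was taken where the uninduced value was under 1 FPKM and the induced value 5 FPKM or more. Of 63651 rows, 84 met both thresholds, and 22 of these were left out by name, which left 62. The 22 were OAS1, MX2, RSAD2, HLA-H, COL10A1, FGB, MFI2 and otherwise small or clone-named RNAs. The values that chose these genes are the values compared below, so every difference between the 2 columns is a description and carries no test.

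The cells were BJ-5ta, foreskin fibroblasts immortalised with telomerase, as clonal lines that carry a FOXA2 transgene controlled by doxycycline and grow under hygromycin B, puromycin and bFGF. The labels list 2 uninduced samples with no doxycycline and 2 induced samples given 0.5 µg/ml doxycycline. They do not state how long induction lasted before any induced value was taken; the name of the induced column begins with 4D, which the table does not explain. Mimosine, a drug that holds cells in G1, is also described, but the cultures that received it are not named, and no control without the transgene was used here, so FOXA2 and doxycycline itself cannot be told apart. In bulk RNA a change in the number of cells that express a gene and a change in RNA per cell cannot be told apart either. The table gives 1 value per gene and group with a lower and an upper bound, and none per sample, so no spread between samples, n or p-value can be given. FOXA2 itself was at 4.82 FPKM (interval 0.526 to 9.12) uninduced and 104 FPKM (50.2 to 158) induced. Transgene and endogenous transcripts were not separated. Fibroblast identity markers were present in both columns, with 11 of 11 at 1 FPKM or more, a summed level of 5343 FPKM uninduced and 4986 FPKM induced. Within that sum 3 were higher and 3 lower by 2-fold or more on the log2(FPKM + 1) scale. FAP, a membrane protease, fell from 36.8 to 3.84 FPKM, and the other 10 had overlapping intervals, among them THY1 (388 and 92.5 FPKM), VIM (2098 and 905 FPKM), COL3A1 (125 and 445 FPKM) and FN1 (863 and 2111 FPKM).

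FOXA2 belongs to the forkhead factors that can bind their sites in nucleosomal DNA and that open liver, lung, gut and pancreas enhancers during development. A gene that is silent in a differentiated cell usually has a closed, often methylated control region, and a pioneer factor is studied for whether it can reach such regions. Interferon-stimulated genes are another large class that fibroblasts hold at low levels and raise when nucleic acid sensors or interferon receptors are engaged.

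"Silent" was checked against the deposited bounds. The uninduced upper bound lay under 1 FPKM for 20 of the 62 genes, and the induced lower bound was 1 FPKM or more for 10. Both held for 1 gene, the calcium channel gene CACNA1H. The label therefore describes the estimates rather than the bounds. The table lists 6 genes at exactly 0 uninduced with an interval of 0 to 0 (LGALS9, TAC3, UBD, MMP13, KRTAP1-3 and SUCNR1), and for these no ratio is given. HSH2D was at a numerically negligible value above 0 (upper bound 0.595 FPKM), is counted as above 0, and is given no ratio.

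The induced levels of the 62 genes ran from 5.01 to 99.0 FPKM with a median of 7.56, and the uninduced levels had a median of 0.395. There were 41 genes between 5 and 10 FPKM, 13 between 10 and 20, and 8 above 20. Together they made up 0.00459% of the uninduced FPKM sum and 0.169% of the induced sum, and the 3 highest, KHDC1L, CHRNA1 and HERC5, held 26.3% of the group's induced sum. Differences were taken as log2(FPKM + 1) induced less uninduced, where the added 1 shrinks the change of genes this low, and their median was 2.75. Over the 14319 genes at 1 FPKM or more in a column it was 0.05. On that scale all 62 were higher by 2-fold or more, which the thresholds of 1 and 5 FPKM make certain. Of the 14319 genes 9.2% were.

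A gene is said to have risen only where its 2 deposited intervals did not overlap. That held for 11 of the 62 genes, or 17.7%, against a background of 0.726% of all 14319 genes; since the rule chose genes for a large difference in this same contrast, nothing is read from the gap. The 11 were KHDC1L, CHRNA1, HERC5, SCN3A, BATF2, TLR3, TMTC2, CACNA1H, RTP4, MMP13 and SUCNR1. For MMP13 and SUCNR1 the uninduced interval was 0 to 0, so any induced lower bound above 0 counted as a rise. With values above 0 required in both columns, 9 genes were called. Beside the 11, the other 51 had overlapping intervals, and for 39 of the 62 the induced lower bound was 0. A looser criterion asks that the difference minus its combined half-width stay above 0, and 16 genes passed it (25.8%, background 1.26%), adding APOD, TLL1, ABCA3, CHRM4 and MAN1C1. A gene whose induced lower bound was 0 could pass neither criterion, whatever its level.

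**Figure D1:**
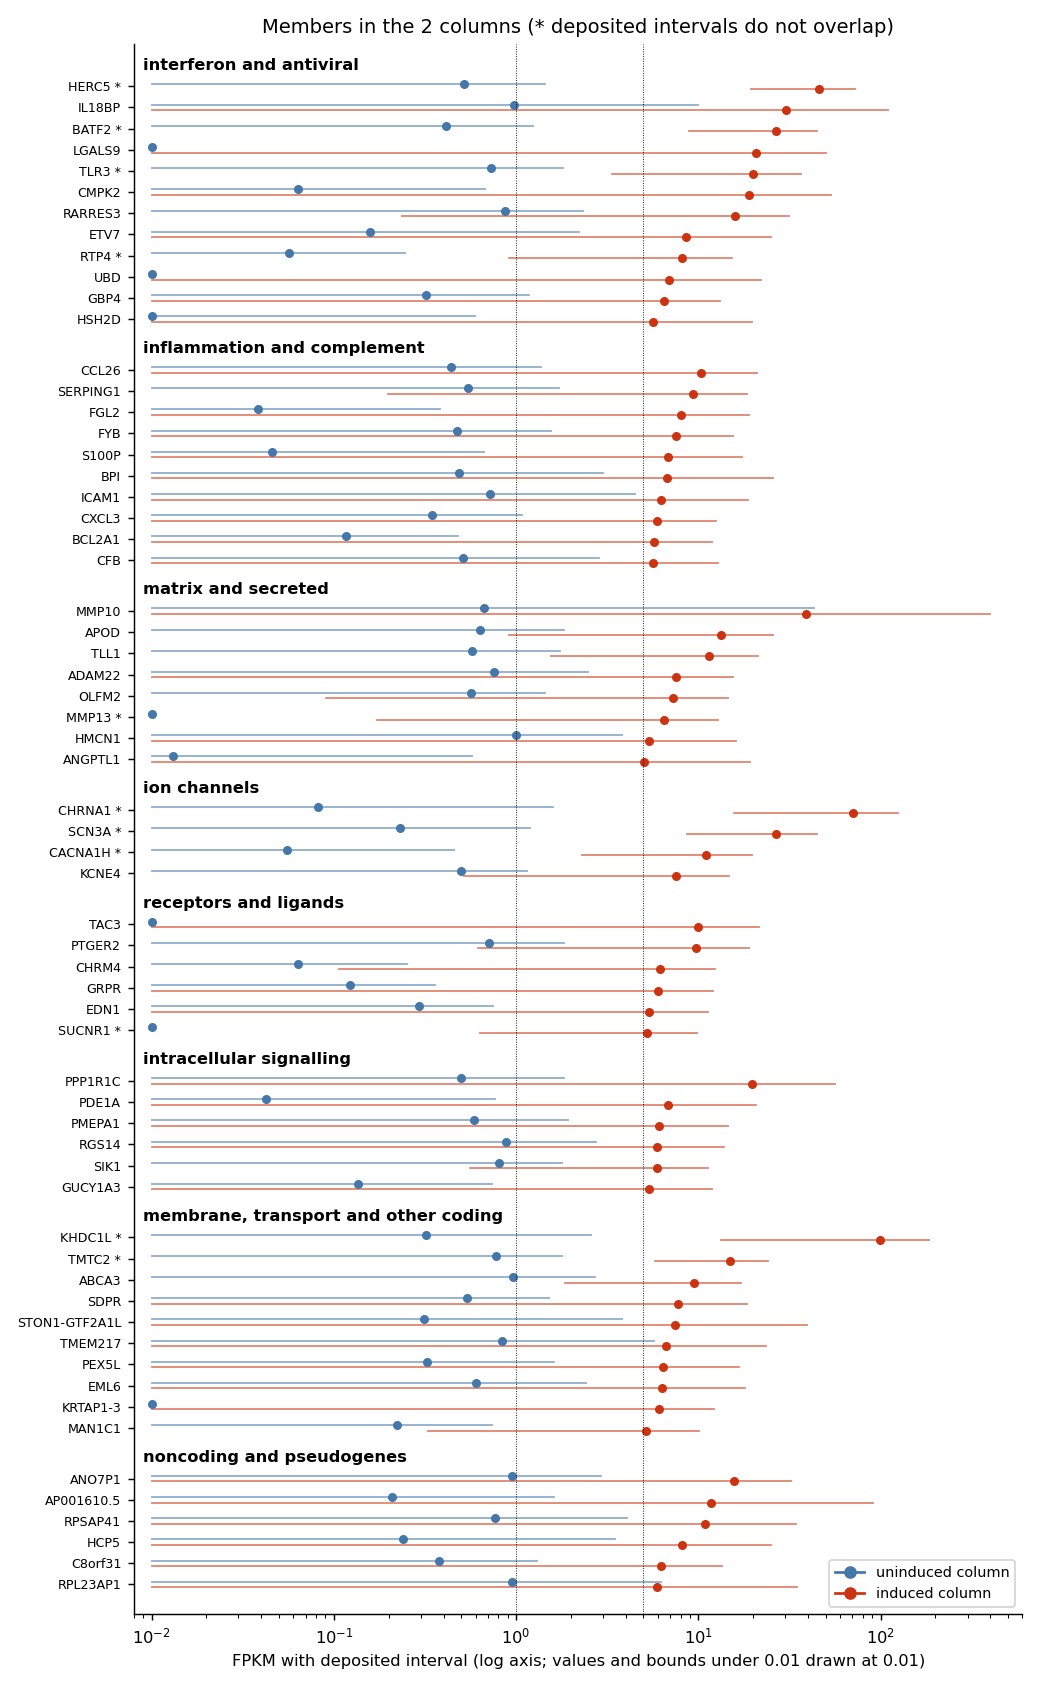
FPKM of the 62 genes in the uninduced (blue) and induced (red) columns on a log axis, grouped by role, with bars for the deposited intervals and dotted lines at 1 and 5 FPKM. The 11 starred genes are those whose bars stay apart, and most other pairs of bars overlap because the induced lower bound reaches 0.

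The share of rows that reached 5 FPKM was larger at higher uninduced levels. Rows that start higher need a smaller change to reach a fixed threshold, and rows of every gene type were counted, so nothing is read from this order. Among rows not left out by name, 17793 were listed at 0 uninduced and 6 of them (0.0337%) reached 5 FPKM induced. Of 1827 rows above 0 and under 0.1 FPKM, 10 (0.547%) did so, of 1696 rows from 0.1 to under 0.5 FPKM 21 (1.24%), and of 703 rows from 0.5 to under 1 FPKM 25 (3.56%). In all, 673 of 22019 rows under 1 FPKM reached 1 FPKM and 274 reached 2 FPKM, so the 62 are the upper end of a longer series. Genes just inside the induced threshold were ANGPTL1 (5.01 FPKM), MAN1C1 (5.18) and SUCNR1 (5.24), and just outside it were NPTX1 (4.96), PLEKHH2 (4.95) and N4BP2L1 (4.94). On the uninduced side HMCN1 (0.996 FPKM), IL18BP (0.975) and ABCA3 (0.959) lay just inside, and PDE3A (1.01), ARHGAP20 (1.01) and CD36 (1.03) just outside. The mirrored rule, 5 FPKM or more uninduced and under 1 induced, took 21 genes.

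**Figure D2:**
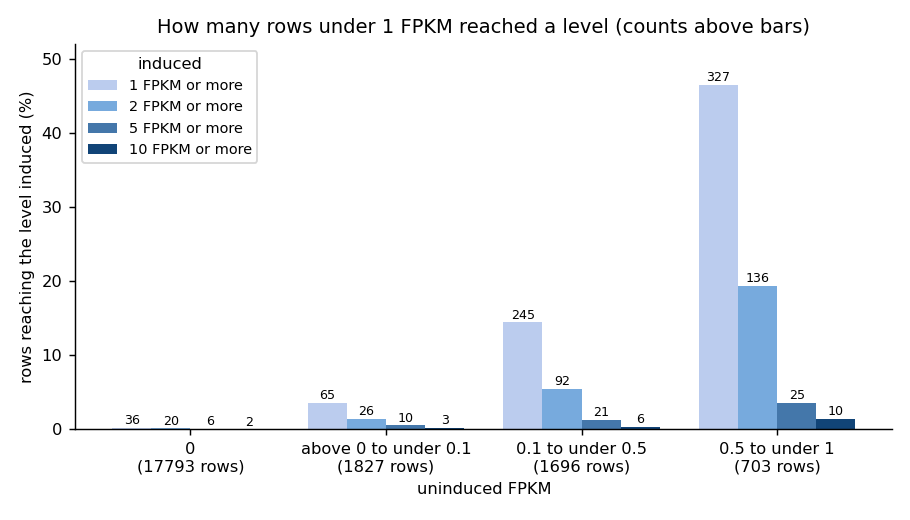
Percentage of rows that reached 1, 2, 5 or 10 FPKM in the induced column, by their uninduced FPKM, with the number of rows above each bar. The share reaching 5 FPKM goes from 0.0337% of rows at 0 to 3.56% of rows at 0.5 to under 1 FPKM.

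Interferon and antiviral genes numbered 12, of which 4 rose. The roles were assigned by hand after the values were seen, so the sizes of the role groups are no result; 9 of the 12 stand on the interferon list, and IL18BP, RARRES3 and UBD do not. HERC5, the ligase that attaches ISG15 to newly made proteins, was at 0.520 FPKM (interval up to 1.44) uninduced and 45.6 FPKM (19.4 to 71.9) induced, and its induced lower bound was 13.5 times its uninduced upper bound. BATF2, a leucine zipper transcription factor of interferon-treated cells, went from 0.412 FPKM (up to 1.24) to 26.7 FPKM (8.84 to 44.7), a rise. TLR3, the endosomal receptor for double-stranded RNA, rose from 0.725 FPKM (up to 1.81) to 19.9 FPKM (3.38 to 36.3). RTP4, a chaperone of cell surface receptors and an interferon-stimulated gene, rose from 0.0566 FPKM (up to 0.244) to 8.10 FPKM (0.914 to 15.3). In each of these 4 genes the induced interval lay wholly above the uninduced one.

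The promoter windows of 3 of these genes are shown because words of the interferon response element stand close to their starts. The sequences are RefSeq's (GRCh38.p14), from 250 bases before the annotated start to 50 bases after it, written 5′ to 3′ on the gene's strand, with capitals for the words GAAANNGAA (interferon response) and the forkhead words, which are TGTTTAC, its variant TGTTTGC and its variant TATTTAC, on either strand. The HERC5 window is chr4:88456869-88457168, the TLR3 window chr4:186068906-186069205 and the RTP4 window chr3:187368135-187368434, all on the plus strand.
HERC5: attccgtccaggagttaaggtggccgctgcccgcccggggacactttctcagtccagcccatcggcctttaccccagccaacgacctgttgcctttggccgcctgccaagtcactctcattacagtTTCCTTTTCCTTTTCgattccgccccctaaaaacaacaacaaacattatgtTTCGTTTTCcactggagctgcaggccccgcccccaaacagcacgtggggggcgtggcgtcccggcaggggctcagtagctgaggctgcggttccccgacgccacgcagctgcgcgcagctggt
TLR3: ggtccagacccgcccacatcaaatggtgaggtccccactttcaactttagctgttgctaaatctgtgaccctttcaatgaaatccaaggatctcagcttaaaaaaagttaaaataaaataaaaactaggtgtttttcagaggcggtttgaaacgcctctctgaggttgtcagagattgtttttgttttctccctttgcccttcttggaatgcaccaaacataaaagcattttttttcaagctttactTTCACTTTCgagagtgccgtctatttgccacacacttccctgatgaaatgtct
RTP4: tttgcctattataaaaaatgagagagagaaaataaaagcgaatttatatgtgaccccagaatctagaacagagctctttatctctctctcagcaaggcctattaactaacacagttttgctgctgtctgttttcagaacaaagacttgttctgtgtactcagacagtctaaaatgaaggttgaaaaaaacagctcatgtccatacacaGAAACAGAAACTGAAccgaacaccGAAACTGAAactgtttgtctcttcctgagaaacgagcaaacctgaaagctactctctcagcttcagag
HERC5 has 3 such words, whose leftmost bases lie at -124, -118 and -73 from the start, and those at -124 and -118 overlap. RTP4 has 3, at -42, -36 and -18, of which those at -42 and -36 overlap, and TLR3 has 1 that spans the start, at -3. A match is a description of the letters and does not show binding.

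The other 8 genes of this role had overlapping intervals. CMPK2, a mitochondrial nucleotide kinase, was at 0.0635 FPKM (up to 0.674) and 18.99 FPKM (0 to 53.2), and its span in the table is shared with RSAD2, at 0.107 and 67.8 FPKM. LGALS9, or galectin-9, was listed at 0 and 20.6 FPKM (0 to 50.1). IL18BP, the secreted decoy of interleukin 18, was at 0.975 and 30.2 FPKM (0 to 109), in a span with 5 other expressed rows such as NUMA1 (60.9 and 75.4 FPKM). Its ligand gene IL18 was at 0.0461 and 0.545 FPKM. RARRES3, a small phospholipase induced by retinoids, was at 0.867 and 15.8 FPKM (0.238 to 31.4), with no other row in its span. ETV7, an ETS factor, was at 0.157 and 8.51 FPKM, UBD, the ubiquitin-like protein FAT10, at 0 and 6.90 FPKM, and GBP4, a guanylate-binding GTPase, at 0.321 and 6.51 FPKM. HSH2D, an SH2 adaptor of blood cells, was at 5.64 FPKM induced, in a span shared with RAB8A (73.2 and 57.4 FPKM). All 8 point the same way by construction, and their bounds do not separate.

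In the wider interferon list, 78 of 88 listed genes were at 1 FPKM or more in a column and 32 of the 78 rose while 0 fell, against backgrounds of 0.726% higher and 0.454% lower; their median log2 difference was 2.66. That list was chosen with earlier results of these data known, and it contains 9 of the genes above, which the rule picked. Of its 22 genes under 1 FPKM uninduced, 12 reached 1 FPKM, and 10 stayed under it in both columns. Among the latter were IDO1, a tryptophan-degrading enzyme typical of interferon gamma (0 and 0 FPKM), IRF8 (0 and 0), the lectin SIGLEC1 (0 and 0.0315), the DNA sensor ZBP1 (0 and 0.224) and GBP5 (0 and 0.154). AIM2, an inflammasome DNA sensor, was at 0.0203 and 3.87 FPKM, short of the threshold. Among the small HERC ligases HERC6 rose from 5.12 to 72.7 FPKM beside HERC5, while HERC3 was at 80.1 and 67.8 FPKM and HERC4 at 130 and 46.9 FPKM. Of 10 Toll-like receptors TLR3 alone rose, and TLR4 was at 8.31 and 9.41 FPKM. IFNB1, interferon beta, was listed at 0 uninduced and at 1.17 FPKM (0 to 2.67) induced, and its intervals were not apart.

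The 10 genes of inflammation and complement lay lower, from 5.61 to 10.3 FPKM induced, and 0 of them rose or passed the looser criterion. All but SERPING1 had an induced lower bound of 0 and so could pass neither criterion. CCL26, the eosinophil chemokine eotaxin-3, was at 0.437 FPKM (up to 1.36) and 10.3 FPKM (0 to 20.9). CXCL3, a neutrophil chemokine, was at 0.345 and 5.95 FPKM, beside CXCL1 at 0.453 and 4.63 FPKM, CXCL6 at 0.535 and 3.09 FPKM, CXCL2 at 0.634 and 2.53 FPKM and CXCL5 at 0.437 and 0.950 FPKM. All 6 chemokines of that receptor group, IL8 included (12.03 and 27.8 FPKM), had higher induced values with overlapping intervals. The interferon-inducible chemokines CXCL9, CXCL10 and CXCL11 stayed at 0.00924, 0.123 and 0.0658 FPKM induced.

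SERPING1, the C1 inhibitor, was at 0.546 FPKM (up to 1.73) and 9.40 FPKM (0.198 to 18.6). CFB, which forms the alternative pathway convertase with C3, was at 0.515 and 5.61 FPKM, while C3 was at 0.565 and 0.574 FPKM. ICAM1, an adhesion molecule for leukocytes, was at 0.717 and 6.26 FPKM in a span shared with MRPL4 (55.2 and 34.9 FPKM). BCL2A1, an antiapoptotic target of NF-kB, was at 0.117 and 5.69 FPKM, and FGL2, a prothrombinase, at 0.0386 and 8.02 FPKM. S100P, a calcium-binding protein, was at 0.0456 and 6.79 FPKM. BPI, an antibacterial granule protein of neutrophils, was at 0.489 and 6.70 FPKM in a span shared with KIAA1755 (1.73 and 10.2 FPKM). FYB, an adaptor of T cells and platelets, was at 0.477 and 7.58 FPKM. Leukocyte markers were near absent: of 8, PTPRC (0.547 and 1.30 FPKM) and CD14 (0.823 and 2.15 FPKM) reached 1 FPKM, CD3E, MS4A1, TYROBP and NKG7 were at 0 in both columns, and the summed level was 1.39 FPKM uninduced and 3.64 FPKM induced. The part of such cells in these values was not tested.

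Ion channel genes made up 4 of the 62, and 3 of them rose, compared with 17.7% of the 62 and 0.726% of all 14319 genes. This role too was set by hand after the values were seen, so nothing is read from the count. CHRNA1, the acetylcholine-binding alpha subunit of the muscle nicotinic receptor, rose from 0.0819 FPKM (up to 1.59) to 70.2 FPKM (15.7 to 125), a ratio of 857 between the estimates and of 9.89 between the nearest bounds. Its row spans chromosome 2, 175411868 to 175639555, in hg19, together with WIPF1, which was at 33.9 and 34.6 FPKM. None of its partner subunits rose: CHRNB1 was at 3.55 and 6.49 FPKM with overlapping intervals, CHRNE at 0.635 and 0.813 FPKM, and CHRND and CHRNG were listed at 0 in both columns. Skeletal muscle markers were under 1 FPKM in both columns for 8 of 8 genes, summing to 0.354 and 0.374 FPKM, with MYOD1, MYOG, MYF5, DES and TNNT3 at 0.

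SCN3A, a voltage-gated sodium channel of the embryonic brain, rose from 0.230 FPKM (up to 1.19) to 26.8 FPKM (8.61 to 45.0). Its neighbour in the sodium channel cluster, SCN2A, was at 0.916 and 3.66 FPKM, SCN9A at 7.59 and 2.13 FPKM, and SCN1A at 0 and 0.0676 FPKM. CACNA1H, a T-type calcium channel that opens at low voltage, rose from 0.0551 FPKM (up to 0.458) to 11.0 FPKM (2.30 to 19.8), whereas its relatives CACNA1G and CACNA1I were at 0.213 and 0.181 FPKM induced. KCNE4, a small subunit that modulates potassium channels, was at 0.498 FPKM (up to 1.15) and 7.59 FPKM (0.517 to 14.7). The other 4 KCNE genes listed were under 1 FPKM in both columns. Neuronal markers were under 1 FPKM in both columns for 7 of 7 genes, with summed levels of 1.06 and 0.883 FPKM.

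KHDC1L had the highest induced level of the 62 and rose from 0.320 FPKM (up to 2.59) to 99.0 FPKM (13.3 to 185). It is a primate gene of the KHDC1 cluster and one of the targets of the embryonic factor DUX4. The table places it on chromosome 6, 73918805 to 74020088, in a span shared with KHDC1 (6.28 and 19.3 FPKM), EIF3EP1 (1.46 and 13.4 FPKM), RPSAP41 (0.766 and 10.9 FPKM) and a clone-named RNA, so its level is uncertain to the extent that reads there were split between these rows. In the list of 49 DUX4 and cleavage-stage genes found in the table, 45 were under 1 FPKM in both columns, 38 were at 0 induced, and KHDC1L alone rose.

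The windows of CHRNA1 (chr2:174764423-174764722) and KHDC1L (chr6:73225447-73225746), both on the minus strand, are shown as the genes with the highest induced levels; neither window holds any of the words searched.
CHRNA1: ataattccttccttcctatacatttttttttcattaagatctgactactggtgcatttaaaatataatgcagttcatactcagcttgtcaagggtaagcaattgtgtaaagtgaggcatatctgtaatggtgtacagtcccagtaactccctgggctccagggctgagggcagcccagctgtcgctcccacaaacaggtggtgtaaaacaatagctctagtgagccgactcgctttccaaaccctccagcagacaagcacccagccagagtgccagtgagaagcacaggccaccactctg
KHDC1L: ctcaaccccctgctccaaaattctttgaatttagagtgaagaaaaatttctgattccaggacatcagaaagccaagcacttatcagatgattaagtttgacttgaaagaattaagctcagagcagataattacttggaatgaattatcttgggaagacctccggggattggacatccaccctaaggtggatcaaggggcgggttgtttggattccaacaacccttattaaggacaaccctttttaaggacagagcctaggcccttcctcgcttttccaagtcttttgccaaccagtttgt
CHRNA1 has 3 CpG dinucleotides in 300 bases, and KHDC1L also has 3.

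**Figure D3:**
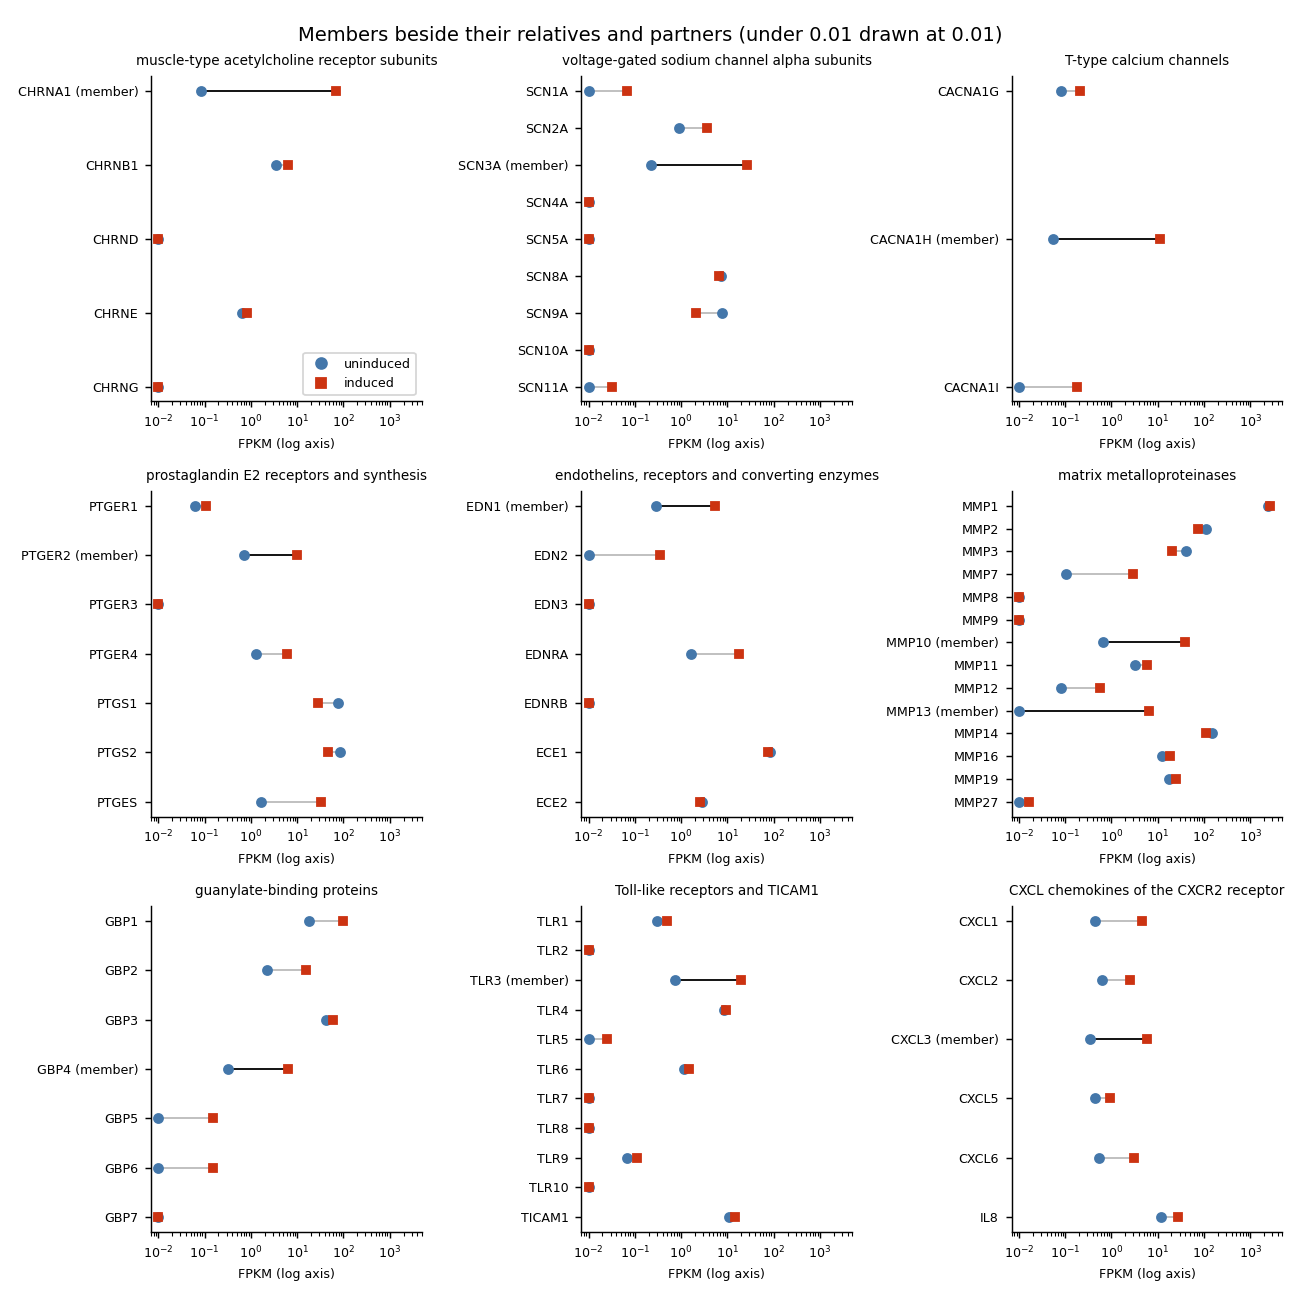
Uninduced (circles) and induced (squares) FPKM of selected genes of the group, marked as members and drawn with black lines, beside their relatives and signalling partners, on log axes. CHRNA1, SCN3A and CACNA1H have the widest gaps between columns in their families, while the CXCL chemokines all lie to the right of their uninduced values.

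Receptors and their ligands contributed 6 genes, of which SUCNR1 rose. SUCNR1, a receptor for the metabolite succinate, was listed at 0 uninduced and at 5.24 FPKM (0.632 to 9.85) induced. PTGER2, a receptor for prostaglandin E2 that raises cyclic AMP, was at 0.712 FPKM (up to 1.82) and 9.77 FPKM (0.616 to 18.9). In the same pathway PTGER4 was at 1.32 and 6.05 FPKM, PTGES, the terminal synthase, rose from 1.69 to 33.3 FPKM, and the cyclooxygenases PTGS1 (78.3 and 28.8 FPKM) and PTGS2 (86.5 and 46.4 FPKM) had lower induced values with overlapping intervals. CHRM4, a muscarinic acetylcholine receptor, was at 0.0636 FPKM (up to 0.253) and 6.19 FPKM (0.107 to 12.3). GRPR, the receptor of gastrin-releasing peptide, was at 0.123 FPKM (up to 0.357) and 6.03 FPKM (0.00599 to 12.05), and its ligand gene GRP was at 0 in both columns.

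The 2 ligand genes were TAC3 and EDN1. TAC3, which encodes neurokinin B, was listed at 0 uninduced and 10.0 FPKM (0 to 21.7) induced; its receptor TACR3 was at 0 in both columns and TACR1 at 1.87 and 5.02 FPKM. EDN1, the vasoconstrictor endothelin 1, was at 0.292 FPKM (up to 0.750) and 5.35 FPKM (0 to 11.3). Its receptor EDNRA rose from 1.61 to 17.4 FPKM, EDNRB was at 0 in both columns, and the converting enzyme ECE1 was at 81.9 and 75.2 FPKM. The relatives and partners named for comparison were chosen once the genes of the group were known.

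Intracellular signalling genes numbered 6, and 0 rose or passed the looser criterion. All but SIK1 had an induced lower bound of 0 and so could pass neither criterion. PPP1R1C, an inhibitor subunit of protein phosphatase 1, was at 0.497 FPKM (up to 1.84) and 19.7 FPKM (0 to 56.4). PDE1A, a calcium-dependent phosphodiesterase, was at 0.0425 and 6.81 FPKM (0 to 20.7), while PDE1C was at 17.6 and 13.5 FPKM. The rows of PPP1R1C (182818967 to 182996125) and PDE1A (183004762 to 183387919) are neighbours on chromosome 2, 8.64 kb apart. GUCY1A3, the alpha subunit of the nitric oxide receptor guanylate cyclase, was at 0.136 and 5.36 FPKM, and its beta partner GUCY1B3 at 4.33 and 11.4 FPKM. SIK1, a kinase induced by cyclic AMP, was at 0.810 and 5.89 FPKM, RGS14, a regulator of G proteins, at 0.878 and 5.96 FPKM, and PMEPA1, a feedback inhibitor of TGF-beta signalling, at 0.585 and 6.11 FPKM.

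Matrix and secreted genes numbered 8, with 1 that rose. MMP13, or collagenase 3, was listed at 0 uninduced and at 6.46 FPKM (0.174 to 12.7) induced. MMP10, or stromelysin 2, had the widest interval of the group, 0.666 FPKM (0 to 43.0) uninduced and 39.0 FPKM (0 to 396) induced, and shares its span with MMP1 (2476 and 2749 FPKM) and MMP3 (41.0 and 20.9 FPKM). The spans of MMP10 and MMP13 lie 99.2 kb apart on chromosome 11. In the same family MMP7 was at 0.106 and 3.01 FPKM and MMP12 at 0.0810 and 0.576 FPKM, both with overlapping intervals, and MMP8 and MMP9 were at 0 in both columns.

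APOD, a lipocalin that carries lipids, was at 0.635 FPKM (up to 1.84) and 13.3 FPKM (0.918 to 25.6), and TLL1, a tolloid proteinase that processes procollagens, at 0.572 FPKM (up to 1.74) and 11.4 FPKM (1.55 to 21.3). Its relative BMP1 was at 25.8 and 31.8 FPKM. ADAM22, a brain receptor of the LGI proteins, was at 0.757 and 7.53 FPKM, OLFM2, an olfactomedin, at 0.568 and 7.30 FPKM, HMCN1, or hemicentin, at 0.996 and 5.37 FPKM, and ANGPTL1, an angiopoietin-like protein, at 0.0130 and 5.01 FPKM.

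The windows of EDN1 (chr6:12290111-12290410, plus strand) and MMP10 (chr11:102780579-102780878, minus strand) are shown as examples that hold both a forkhead and an interferon response word.
EDN1: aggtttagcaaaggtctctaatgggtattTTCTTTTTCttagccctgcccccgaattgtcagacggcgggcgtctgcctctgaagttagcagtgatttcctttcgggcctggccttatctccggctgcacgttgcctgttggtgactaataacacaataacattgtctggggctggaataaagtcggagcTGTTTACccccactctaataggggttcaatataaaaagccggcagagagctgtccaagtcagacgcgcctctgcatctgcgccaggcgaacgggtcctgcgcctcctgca
MMP10: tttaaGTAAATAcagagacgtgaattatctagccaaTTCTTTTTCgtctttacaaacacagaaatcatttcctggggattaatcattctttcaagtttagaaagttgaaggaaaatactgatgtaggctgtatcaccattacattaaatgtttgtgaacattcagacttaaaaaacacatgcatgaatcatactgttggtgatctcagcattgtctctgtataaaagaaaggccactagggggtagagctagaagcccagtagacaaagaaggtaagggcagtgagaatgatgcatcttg
In EDN1 the forkhead word lies at -60, a TATA box word at -31, and the interferon response word at -221. In MMP10 they lie at -245 and -214.

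Of the 10 remaining coding genes 2 rose, KHDC1L and TMTC2. TMTC2, an endoplasmic reticulum protein that transfers mannose to cadherins, rose from 0.776 FPKM (up to 1.79) to 14.9 FPKM (5.78 to 24.1); TMTC1, TMTC3 and TMTC4 were at 3.13, 11.5 and 5.08 FPKM induced with overlapping intervals. ABCA3, a lipid transporter of lung surfactant, was at 0.959 and 9.46 FPKM (1.85 to 17.1), and the Golgi mannosidase MAN1C1 at 0.223 and 5.18 FPKM (0.329 to 10.0). SDPR, a cavin of caveolae, was at 0.541 and 7.69 FPKM in a span shared with TMEFF2 (1.77 and 19.3 FPKM). The more abundant cavin PTRF (344 and 175 FPKM) and CAV1, or caveolin 1 (634 and 224 FPKM), had lower induced values with overlapping intervals. KRTAP1-3, a hair keratin-associated protein, was listed at 0 and 6.08 FPKM. PEX5L, a regulator of HCN channels, was at 0.324 and 6.43 FPKM, EML6, a microtubule-binding protein, at 0.606 and 6.30 FPKM, and TMEM217 at 0.840 and 6.68 FPKM in a span with TBC1D22B (6.20 and 14.9 FPKM). STON1-GTF2A1L, a readthrough of 2 genes, was at 0.314 and 7.40 FPKM beside STON1 itself at 3.94 and 7.49 FPKM.

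Genes that are not protein coding in GENCODE made up 6 of the 62, and 0 rose. All 6 had an induced lower bound of 0, so no rise could be called. AP001610.5, an antisense RNA, was at 0.208 and 11.7 FPKM (0 to 91.0) in the span of MX1, which was at 1.70 and 275 FPKM. RPL23AP1, a ribosomal protein pseudogene, was at 0.952 and 5.96 FPKM in the span of HLA-F (9.90 and 166 FPKM), and HCP5, a noncoding RNA of the HLA region, at 0.241 and 8.16 FPKM in the span of MICA (37.3 and 41.6 FPKM). RPSAP41, another pseudogene, lies in the span of KHDC1L. ANO7P1, a pseudogene with a span of its own, was at 0.945 and 15.6 FPKM (0 to 32.3), and C8orf31 at 0.378 and 6.21 FPKM. The libraries did not keep strand, so an antisense RNA and its partner cannot be told apart.

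Of the 62 genes 24 (38.7%) shared their span with another row at 1 FPKM or more, compared with 45.8% of all 14319 genes at that level. Among the 11 that rose, 8 shared no such span: HERC5, SCN3A, BATF2, TLR3, TMTC2, CACNA1H, RTP4 and MMP13. The other 3 were KHDC1L, CHRNA1 and SUCNR1. Rows in the same span were named above for only some of the 24. Those described without them were LGALS9, ETV7, FGL2, FYB, UBD, GRPR, CFB, SUCNR1 and ANGPTL1. The part of neighbouring rows in these values was not tested.

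**Figure D4:**
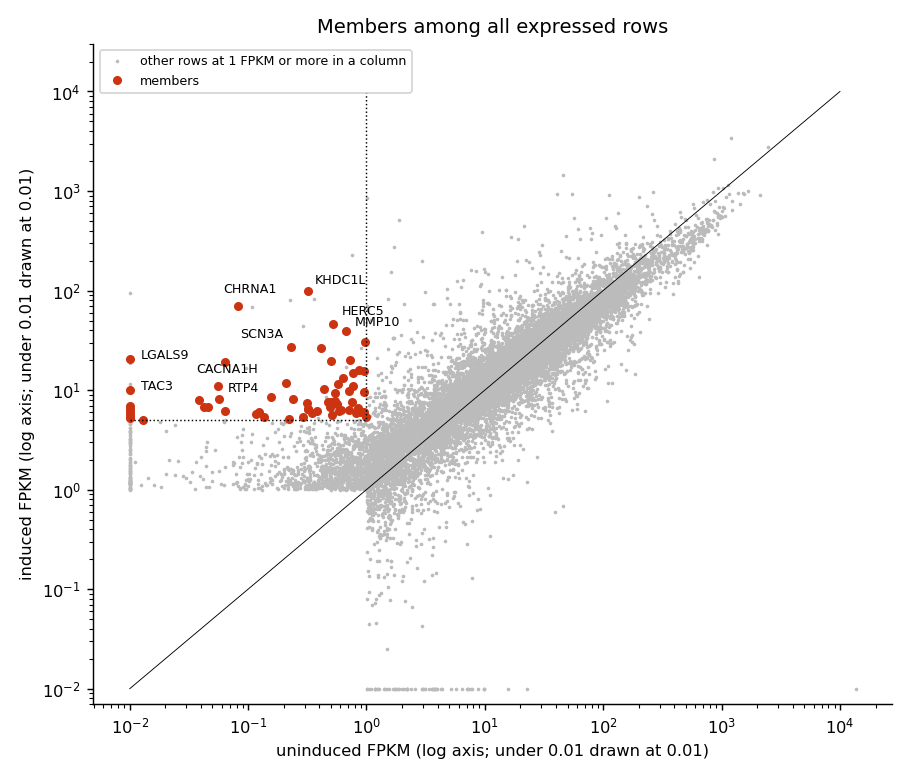
Induced against uninduced FPKM on log axes for the 62 genes (red) and all other rows at 1 FPKM or more in a column (grey), with the diagonal and the thresholds of 1 and 5 FPKM as lines. Grey points inside the thresholds are rows left out by name. KHDC1L and CHRNA1, at 99.0 and 70.2 FPKM, lie highest among the red points, and most of the rest lie between 5 and 10 FPKM.

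The lists of liver products, of endoderm and liver transcription factors, and of pancreas, gut and lung genes held 0 of the 62. These lists do not cover such tissues in full: ABCA3 is a lung gene on none of them, and CFB and SERPING1, which the liver also makes, stand on the list of complement and acute phase genes. Over all rows under 1 FPKM uninduced and not left out by name, of every gene type, 3.06% reached 1 FPKM and 0.282% reached 5 FPKM. The count of 0 is partly set by the rule, which leaves out FGB of the liver products list by name, so nothing is read from it. In the list of liver products 42 of 47 genes were under 1 FPKM uninduced, and 6 of those reached 1 FPKM, FGB, CYP2E1 and TDO2 among them. Among endoderm and liver transcription factors 31 of 36 were under 1 FPKM uninduced and 0 of those reached 1 FPKM. KLF5, a zinc finger factor of that list that was already expressed, rose from 11.6 to 57.6 FPKM. Of 39 pancreas, gut and lung genes 38 were under 1 FPKM uninduced and 1 of those, AGR2, reached it (0.0398 and 2.12 FPKM). The fibrinogen chain gene FGB met both thresholds and rose from 0.289 to 44.2 FPKM, but the rule leaves it out by name. Of 8 hepatocyte markers HNF4A and TTR were at 0 in both columns, APOA1 (0.102 and 1.21 FPKM) and SERPINA1 (0.694 and 1.29 FPKM) reached 1 FPKM, AFP was at 3.34 and 0.318 FPKM, and ALB, FGA and FGG were under 1 FPKM in both, all with overlapping intervals. In addition, 7 of 7 epithelial and 6 of 6 endothelial markers were under 1 FPKM in both, and CDH5, PECAM1 and KDR were at 0. In all, 19 of the 62 genes stood on 1 of the 20 lists and 43 on none.

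By position, 9 of the 62 lay on chromosome 2 and 9 on chromosome 6, which is 0.728% and 1.02% of the rows under 1 FPKM there. Chromosome 11 held 7 (0.537%) and chromosome 4 held 6 (0.809%), compared with 0.282% over all chromosomes. On chromosome 6, UBD and RPL23AP1 lay 88.8 kb apart and HCP5 and CFB 420 kb apart, all in the HLA region. No chance test was made of these positions.

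Promoter letters were not used by the rule. RefSeq windows were found for 45 of the 62 genes (69 windows, since some genes have several starts) and for 18807 rows of the table (25462 windows). The interferon response word GAAANNGAA stood in 19 of the 69 windows (27.5%), compared with 7.35% of all windows, 8.35% of windows of genes under 1 FPKM in both columns and 6.50% of windows of genes at 1 FPKM or more in both. It was found in 18 genes, 7 of them of the interferon role: HERC5, TLR3, RTP4, CMPK2, GBP4, LGALS9 and IL18BP. The other 11 were BCL2A1, CFB, CXCL3, EDN1, FGL2, FYB, MAN1C1, MMP10, PEX5L, SDPR and TMTC2. BATF2 and UBD, of the interferon role, had no match in this window.

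Any of the 3 forkhead words stood in 8 of the 69 windows (11.6%), in 7 genes, compared with 8.24% of all windows and 10.4% of windows of genes under 1 FPKM in both columns. The 7 were BCL2A1, CMPK2, EDN1, KRTAP1-3, MMP10, PMEPA1 and TLL1. Of these 7 genes 0 rose, compared with 8 of the 38 genes whose windows held no forkhead word. For the interferon response word 4 of 18 genes with it rose and 4 of 27 without it. Over all 14319 genes at 1 FPKM or more in a column 0.726% rose. No test was made of these small counts. They rest on the values that chose the genes, so nothing is read from them. Distal sites, where FOXA2 often binds, lie outside these windows. The TATA box word TATAAA stood in 13 windows (18.8%, all windows 9.72%, genes under 1 FPKM in both columns 14.5%), the AP-1 word TGANTCA in 3 (4.35%, all 6.79%) and the NF-kB word GGGANTTCC in 1 (1.45%, all 2.02%), that of UBD. All words were searched on both strands.

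CpG content was computed in the same windows. The ratio of observed to expected CpG had a median of 0.336 in the 69 windows, 0.361 in windows of genes under 1 FPKM in both columns and 0.823 in windows of genes at 1 FPKM or more in both. A ratio under 0.6 was found in 71.0%, 65.96% and 21.9% of these windows, in that order.

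**Figure D5:**
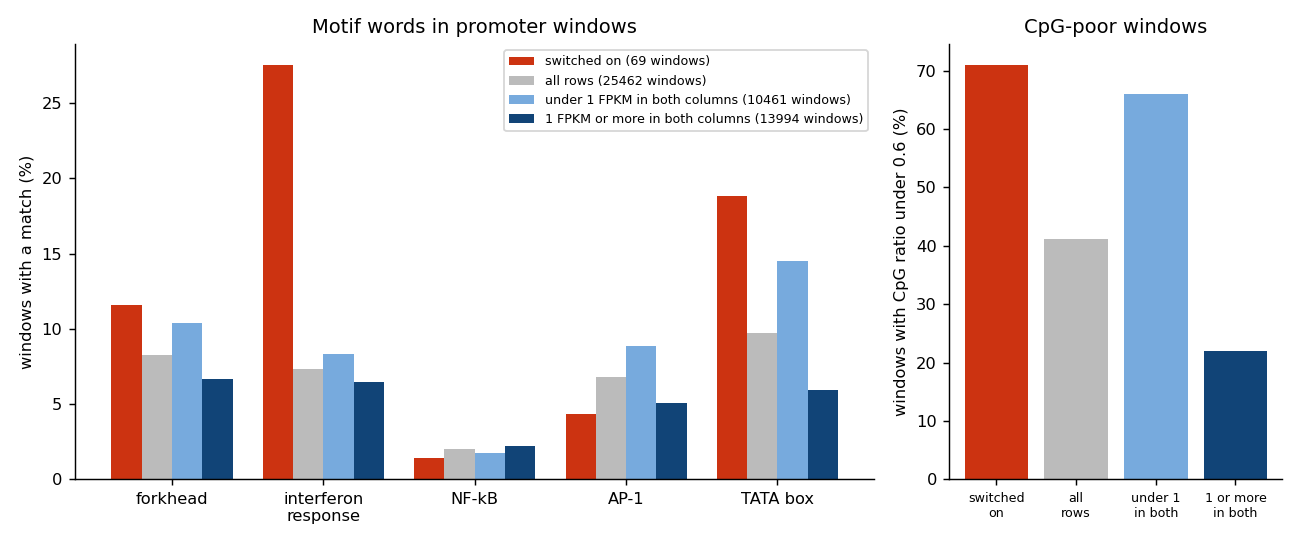
Percentage of RefSeq promoter windows with a match to each motif word (left) and with a CpG ratio under 0.6 (right), for the 69 windows of the group, all 25462 windows, and windows of genes under 1 FPKM in both columns or at 1 FPKM or more in both. The interferon response word stands in 27.5% of the group's windows and in 7.35% of all windows, while the CpG bar of the group lies near that of genes under 1 FPKM in both columns.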

How the data were processed

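Total RNA of 4 samples was extracted on columns and made into libraries that do not keep strand, per the labels' protocols, and the aligner TopHat and the build hg19 are named, per the submitters' processing notes. What is not given in the sources used here is the quantifier, the filters and any pooling of a group's samples. The values the authors deposited are FPKM with lower and upper bounds, per the file headers, 1 column per group, matched to the groups by name. The level of the bounds is not stated, and 3 value columns of a condition matching no sample were not used. Counts were not used here. In 2973 genes with 1 start site and low values, the induced value was most often 0.86 times the uninduced one, in 131 genes within 0.01 of it. If that is the worth of 1 fragment, the induced column is 1.16 times as deep.

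The planned limma fit could not be run on 1 value per group, so genes were called where deposited intervals did not overlap. Log2 differences used a pseudocount of 1 and genes at 1 FPKM or more in either column. Symbols with several rows were represented by their most abundant row. Calls, scaling and motif search were tested on simulated data. Named genes were every gene of the group and those beside each threshold; relatives, partners and list genes named beside them were chosen after values were seen. The genes and lists were chosen with earlier results of these data known, and role groups after the values were seen. Gene types came from GENCODE 29 and promoters from RefSeq, matched through Ensembl identifiers and symbols on the same chromosome. Python 3.11.15, pandas 2.3.3 and scipy 1.17.1 were used.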

Additional observations from a re-analysis of the deposited data

How the results depend on the processing

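No paired analysis was possible because each group has a single deposited column; for want of values by sample, the planned limma fits, with or without the replicate number or with a library left out, were not made. The group of 62 genes became 37 with an uninduced threshold of 0.5 FPKM, 21 with an induced threshold of 10 FPKM and 38 without genes whose span overlaps another row at 1 FPKM or more, each by construction. It was 76 with both columns scaled to the same sum (the 62 included), 49 after quantile normalization (49 of the 62) and 56 with values above 0 required. The count that rose, 11, ranged from 8, without genes in shared spans (added after the data were seen), to 16, with the interval of the difference. The median log2 difference of 2.75 was 4.23 with a pseudocount of 0.1, 1.22 with 5, 2.86 with columns scaled and 2.59 after quantile normalization, where the medians over all genes were 0.06, 0.04, 0.23 and -0.01. In windows from 150 bases before to 50 after the start, the interferon response word stood in 17.4% of the group's windows and 4.66% of all windows. Any forkhead word stood in 10.1% and 5.15%, and in 6.64% of windows of genes under 1 FPKM in both columns. The depth behind each value is unknown, so no limit can be set for genes listed at 0.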

Other observations

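Just beside the thresholds lay further genes, chosen after their values were seen. Of 11 genes between 1 and 2 FPKM uninduced and at 20 FPKM or more induced, 7 rose, against 0.726% of all 14319 genes. These 11 were taken for a large difference in this same contrast, so nothing is read from that gap either. SLC38A4, an amino acid transporter of liver and placenta, was at 1.67 FPKM (bounds 0 and 3.74) uninduced and rose to 33.5 FPKM (12.3 to 54.8). INHBA, which encodes the activin A subunit, was at 1.22 FPKM (bounds 0 and 3.01) and rose to 21.1 FPKM (7.35 to 34.9), and SERPINI1, or neuroserpin, from 1.71 to 33.7 FPKM. CD36, a fatty acid and thrombospondin receptor, was at 1.03 FPKM (0 to 3.21) and 63.3 FPKM (0.412 to 126), with overlapping intervals, as was CTSS, or cathepsin S, at 1.95 and 35.5 FPKM. Of the 21 genes that met the mirrored rule 6 fell, against 0.454% of all 14319 genes. The mirrored rule chose genes for a large fall in this same contrast, so nothing is read from the gap. Among the 6 were ESM1, from 39.1 to 0.602 FPKM, and ADRA1D, an adrenergic receptor, from 9.08 to 0.642 FPKM.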
